A study of Mus musculus with 6 samples.

Results

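The transcripts described here are those of 10 genes of the NF-κB system, picked by gene name from the 54532 genes of the deposited table. They are the 5 subunits of the transcription factor (Nfkb1, Nfkb2, Rel, Rela and Relb) and 5 genes whose products restrain it (Nfkbia, Nfkbie, Nfkbiz, Tnfaip3 and Tnip1). Each name matched 1 row, and each gene passed the filter on low values. The libraries came from neutrophils of C57BL/6J mice, isolated from bone marrow with anti-Ly-6G magnetic beads, 3 from WT mice and 3 from progranulin knockout (PGRN KO) mice, and all 6 cultures were harvested 6 h after live Candida albicans was added. The PGRN KO and WT mice came from different suppliers according to the study's methods, so genotype and supplier cannot be told apart. There is no unexposed library, so the values are levels after exposure and not induction by the fungus. Neither the age of the mice nor how many of them supplied a culture is given in the sources used here, so p-values measure the spread between these cultures, which may be technical.

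NF-κB subunits pair with one another and bind DNA at κB sites. In a resting cell most dimers are held in the cytoplasm by IκB proteins such as IκBα (Nfkbia) and IκBε (Nfkbie). Receptors for fungal sugars, Toll-like receptor ligands, TNF and interleukin-1 activate the IκB kinase, IκB is destroyed and the dimers enter the nucleus. In neutrophils this drives chemokine, cytokine and survival genes. Among the genes induced are those of the inhibitors themselves, which closes a feedback loop: new IκBα takes dimers out of the nucleus, while A20 (Tnfaip3) with its partner ABIN-1 (Tnip1) edits the ubiquitin chains on which the upstream signal depends. IκBζ (Nfkbiz) differs from the others, being a nuclear protein that also helps to switch on a set of secondary genes.

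Because the feedback loop runs through κB sites, promoters of the 10 genes were searched for them. RefSeq promoter sequences on GRCm38.p6, from 250 bases before to 50 bases after the start of transcription, matched 7 of the 10 genes (Nfkb2, Rel, Rela, Nfkbia, Nfkbie, Tnfaip3 and Tnip1). The κB consensus, read on both strands, starts with GGG and a purine, goes on with any base, A or T and pyrimidines, and ends with CC. It was present in 6 of these 7 genes, the exception being Rela, against 5.14% of the 27025 genes and 4.51% of the 32851 promoters in the table. The looser pattern GGGNNNNNCC was found in 7 of 7 but also in 50.8% of promoters, so it separates nothing. The matches follow in the direction of transcription, with the matched bases in capitals and overlapping matches joined. The 10 genes were picked as known parts of this system, so the matches are no independent support for the loop. Nfkbiz could not be searched, and the subunits Rel and Nfkb2 hold matches too. A match describes letters and not binding.
Nfkbia: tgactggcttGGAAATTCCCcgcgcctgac
Nfkbie: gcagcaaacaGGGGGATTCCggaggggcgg
Tnfaip3: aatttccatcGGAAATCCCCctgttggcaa
Tnip1: ctccatcatgGGGGAATTCCCCtcctgcct
Rel: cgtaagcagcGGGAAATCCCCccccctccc
Nfkb2: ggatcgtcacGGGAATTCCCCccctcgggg

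Coordinates are those of the printed stretches, flanks included. The Nfkbia stretch is chr12:55492657-55492686 (minus strand), with its match from 29 to 20 bases before the start. That of Nfkbie is chr17:45555584-45555613 (plus strand), with its match from 106 to 97 bases before the start. The Tnfaip3 stretch is chr10:19015403-19015432 (minus strand), with its match 12 to 3 bases before the RefSeq start. That start itself lies 247 bases inside the gene as the deposited table draws it. The Tnip1 stretch is chr11:54962979-54963008 (minus strand), and its match is the longest, a palindrome that reads as the consensus 4 times over both strands. The Rel stretch is chr11:23771042-23771071 (minus strand) and that of Nfkb2 is chr19:46304688-46304717 (plus strand). Tnfaip3 and Nfkb2 each hold a further match, 125 and 11 bases before the start. For Nfkbia, the most abundant of the 10 transcripts, the 250 bases before the start (chr12:55492648-55492897, minus strand) are given whole to show the setting of its single match.
Nfkbia upstream: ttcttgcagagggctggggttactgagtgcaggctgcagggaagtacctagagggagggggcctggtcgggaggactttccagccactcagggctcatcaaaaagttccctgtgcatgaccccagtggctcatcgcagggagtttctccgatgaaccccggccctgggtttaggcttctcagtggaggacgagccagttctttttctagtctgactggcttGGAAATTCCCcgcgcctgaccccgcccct

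Levels are given in FPKM (fragments scaled to gene length and library size), so that genes of different length can be set side by side. The order of the genes thus rests on the deposited lengths, from 1610 bases for Nfkbia to 12061 for Nfkb1. By fragments over the WT libraries, Nfkb1 (19773) stood above Nfkbie (5892), Rela (9764) and Relb (13886) and below the other members. Fragments on genes numbered 17290604 to 17799798 per WT library and 17087344 to 18821091 per PGRN KO library, and the member with fewest, Nfkbie, still had at least 1571 fragments in each library. Grn, which encodes progranulin, checked the labels. In WT it stood at 168, 161 and 166 FPKM and in PGRN KO at 0.242, 0.206 and 0.747 FPKM, a log2 fold change of -6.91 (SE 0.14, adjusted p = 1.05e-05 from limma). All 12 neutrophil markers on a prepared list were detected, at a summed 72377 to 76943 FPKM in WT and 73688 to 83698 FPKM in PGRN KO. Of these 2 (Csf3r and Mmp8) were called lower and 1 (Mmp9) higher, against 9.95% lower and 7.94% higher over all tested genes. With plain totals of fragments 0 were lower and 3 (Mmp9, S100a9 and Retnlg) were higher, against 6.3% lower and 2148 higher of 14815 genes.

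In WT neutrophils Nfkbia stood far above the rest at 1247 ± 16.8 FPKM (SD, n = 3). Nfkbiz and Tnfaip3 followed at 223 ± 10.8 and 223 ± 10.7 FPKM and could not be ordered, nor could Nfkb2 at 175 ± 6.43 and Tnip1 at 172 ± 6.03 FPKM. Rela and Relb also overlapped, at 70.8 ± 1.03 and 70.4 ± 0.482 FPKM. Rel, Nfkbie and Nfkb1 came last, at 59.3 ± 6.16, 38.1 ± 1.21 and 32.3 ± 1.45 FPKM, with no overlap between these neighbours. Thus the inhibitors took most of the RNA of the system, and Nfkbia alone made up 53.9% of the summed FPKM of the 10 genes. In PGRN KO the rank was the same for Nfkbia, Nfkbiz, Tnip1, Rela, Relb and Rel. Nfkb2 (161 ± 25.5 FPKM) now ranked above Tnfaip3 (157 ± 21.8 FPKM), and Nfkb1 (30.6 ± 3.21 FPKM) above Nfkbie (30.5 ± 3.33 FPKM), but both pairs overlapped.

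**Figure D1:**
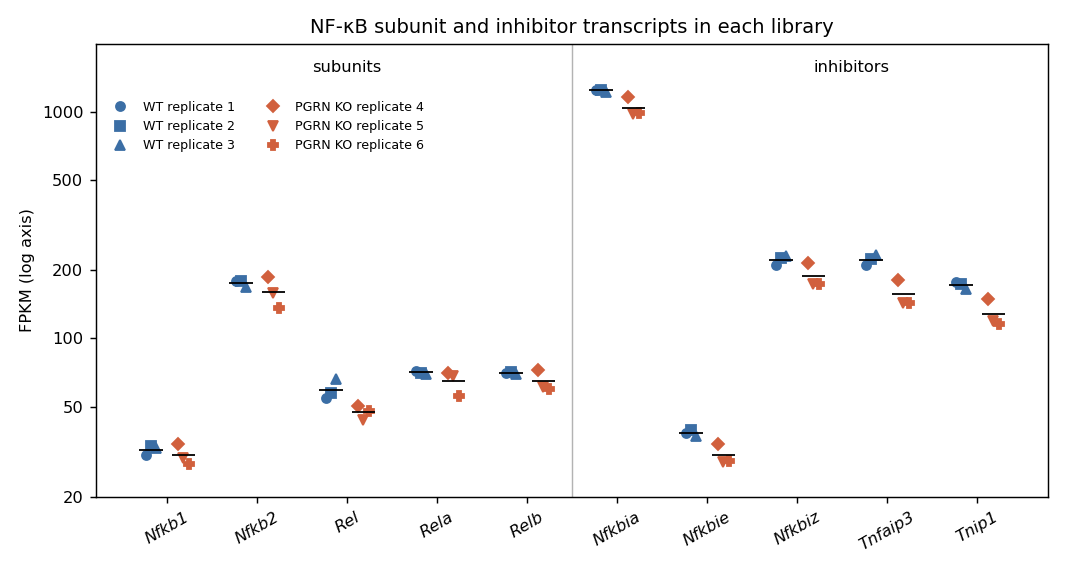
FPKM of each of the 10 genes on a log axis, with 1 point per library, WT in blue, PGRN KO in orange, and a line at the mean of each group. PGRN KO replicate 4 is the highest PGRN KO point for all 10 genes, and the groups do not overlap for Rel, Nfkbia, Nfkbie, Tnfaip3 and Tnip1.

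The genotypes were then compared, both after exposure to the fungus. On the log2(FPKM + 1) scale, 10 of 10 genes had a lower mean in PGRN KO, with a median log2 fold change of -0.25. Across the 14807 genes tested 49.4% had a log2 fold change below 0, and the median was 0.0026. At an adjusted p under 0.05 from limma, 5 of the 10 were called lower and 0 were called higher (at an unadjusted p under 0.05, Nfkbiz would join them). Of all tested genes 9.95% were called lower and 7.94% higher. Abundant genes were called lower more often. Among the 1446 genes with a mean of at least 31.4 FPKM, the level of the lowest member, 30.2% were called lower and 14.7% higher, with a median log2 fold change of -0.080. The 5 called genes are those whose groups did not overlap, a pattern seen in 19.6% of all tested genes. Inhibitors made up 4 of the 5, and Rel was the 1 subunit among them.

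The call is a narrow one. Adjusted p ranged from 0.0144 for Tnfaip3 to 0.0491 for Nfkbia, and with any library but PGRN KO replicate 4 left out, 0 or 1 of the 10 genes passed. Without WT replicate 2, WT replicate 3 or PGRN KO replicate 5 the count was 0, and without WT replicate 1 or PGRN KO replicate 6 it was 1, Tnfaip3. Without PGRN KO replicate 4 it was 6, with Relb and Nfkbiz added and Rel lost. The sign of the difference was unaffected in these 6 fits for each of the 10 genes. The calls also moved with the scaling of the libraries. Against plain totals of fragments, the deposited scaling shifts PGRN KO from WT by -0.12 (log2), and with plain totals 1 of the 10 genes, Tnfaip3, was called lower, against 6.3% of genes tested that way. The median of all tested genes then moved to 0.067, and the log2 fold changes of Nfkb2, Rela and Relb to -0.017, -0.013 and -0.0060.

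Tnfaip3 encodes A20, a ubiquitin-editing enzyme that shuts off signalling from TNF and Toll-like receptors, and it lies on chromosome 10 from 19000910 to 19015657 (ENSMUSG00000019850, GRCm38). Its level was 212, 223 and 233 FPKM in the WT libraries and 182, 144 and 144 FPKM in the PGRN KO libraries. The lowest WT value was above the highest PGRN KO value, and PGRN KO replicate 4 lay between WT and the other PGRN KO libraries. The level fell by 29.7% of the WT mean, a log2 fold change of -0.51 (SE 0.097, adjusted p = 0.0144 from limma). With plain totals of fragments it was -0.39 (adjusted p = 0.0292). It was called in 13 of 16 alternative fits, with a highest adjusted p of 0.0572.

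Tnip1 encodes ABIN-1, which binds ubiquitin chains and A20, and lies on chromosome 11 from 54910785 to 54962917 (ENSMUSG00000020400), 47.5 Mb from Grn. Its level was 177, 174 and 166 FPKM in WT and 149, 120.0 and 116 FPKM in PGRN KO. The groups were separate, and replicate 4 was again the PGRN KO library nearest to WT. The log2 fold change was -0.43 (SE 0.095, adjusted p = 0.0245 from limma), or -0.31 with plain totals (adjusted p = 0.0601). Thus A20 and its partner transcript stood lowest against WT of the 10.

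Nfkbia encodes IκBα, the inhibitor that is degraded and remade within the first wave of the response, and lies on chromosome 12 from 55489410 to 55492647 (ENSMUSG00000021025). Its level was 1257, 1257 and 1228 FPKM in WT, a spread of 1.34% of the mean, and 1162, 983 and 986 FPKM in PGRN KO, a spread of 9.83%. The groups did not overlap. The log2 fold change was -0.26 (SE 0.071, 95% interval -0.43 to -0.091, adjusted p = 0.0491 from limma). With plain totals it was -0.14 and was not called (adjusted p = 0.202).

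Nfkbie encodes IκBε, an IκB protein of slower turnover, and lies on chromosome 17 from 45555703 to 45563169 (ENSMUSG00000023947). Its level was 38.1, 39.3 and 36.9 FPKM in WT and 34.3, 28.4 and 28.7 FPKM in PGRN KO. Again each PGRN KO library was below each WT library. The log2 fold change was -0.32 (SE 0.078, adjusted p = 0.0339 from limma), and with plain totals it was -0.20 (adjusted p = 0.111).

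Nfkbiz, encoding the nuclear IκBζ, lies on chromosome 16 from 55811375 to 55838899 (ENSMUSG00000035356) and is the inhibitor that did not pass. Its level was 211, 226 and 232 FPKM in WT and 216, 175 and 175 FPKM in PGRN KO. Replicate 4 of PGRN KO lay above WT replicate 1, so the groups overlapped. The log2 fold change was -0.25 (SE 0.090, 95% interval -0.46 to -0.033, adjusted p = 0.109 from limma).

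Rel encodes c-Rel, a subunit with a transactivation domain that is prominent in blood cells, and lies on chromosome 11 from 23736847 to 23770970 (ENSMUSG00000020275), 78.7 Mb from Grn. Its level was 54.4, 57.4 and 66.2 FPKM in WT and 50.3, 43.7 and 47.9 FPKM in PGRN KO. Here the wider spread was in WT, at 10.4% of the mean, and the groups were separate. The log2 fold change was -0.32 (SE 0.086, adjusted p = 0.0474 from limma), and with plain totals -0.20 (adjusted p = 0.137).

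The other subunits overlapped between genotypes. Rela encodes p65, the main activating subunit (ENSMUSG00000024927, chromosome 19 from 5637483 to 5648130), and its level was 71.9, 70.4 and 70.0 FPKM in WT and 70.5, 68.1 and 55.9 FPKM in PGRN KO. PGRN KO replicate 6 was the low one, and the other PGRN KO libraries were close to WT. Its log2 fold change was -0.13 (95% interval -0.34 to 0.074, adjusted p = 0.352 from limma). Relb, a subunit of the slower non-canonical pathway (ENSMUSG00000002983, chromosome 7 from 19606217 to 19629438), was at 70.2, 70.9 and 70.0 FPKM in WT and 72.9, 61.3 and 59.9 FPKM in PGRN KO. Replicate 4 of PGRN KO was the highest of the 6 libraries, and the log2 fold change was -0.12 (95% interval -0.31 to 0.057, adjusted p = 0.317 from limma).

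Nfkb2 encodes p100, the precursor of p52 and partner of RelB (ENSMUSG00000025225, chromosome 19 from 46304737 to 46312090). It was at 179, 179 and 168 FPKM in WT and 187, 159 and 136 FPKM in PGRN KO, the widest PGRN KO spread of the 10 at 15.9% of the mean. Its log2 fold change was -0.14 (95% interval -0.40 to 0.12, adjusted p = 0.443 from limma). Nfkb1 encodes p105, the precursor of p50 (ENSMUSG00000028163, chromosome 3 from 135584655 to 135691547). It was at 30.7, 33.4 and 32.8 FPKM in WT and 34.1, 29.8 and 27.8 FPKM in PGRN KO, so that the PGRN KO libraries lay on both sides of WT. Its log2 fold change was -0.081 (95% interval -0.27 to 0.11, adjusted p = 0.536 from limma), and with plain totals the sign turned, to 0.036 (adjusted p = 0.785). These intervals leave room for a difference of either sign.

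**Figure D2:**
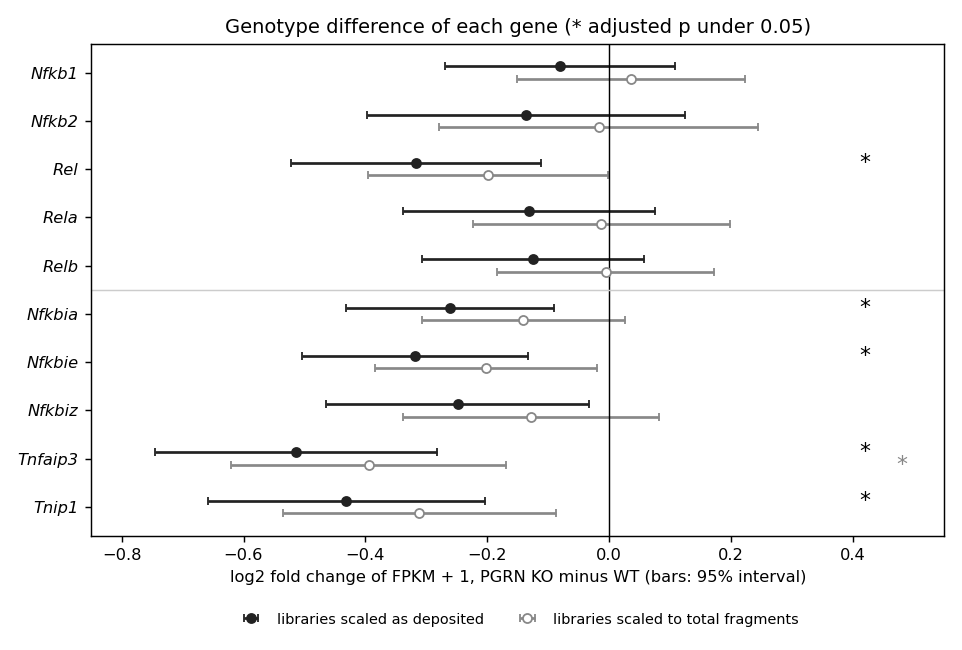
Log2 fold change of FPKM + 1, PGRN KO minus WT, for each gene with its 95% interval, filled points for the deposited scaling and open points for plain totals of fragments. A star marks an adjusted p under 0.05: 5 genes with the deposited scaling and Tnfaip3 with plain totals, where Nfkb1 has its point at 0.036, above 0.

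Since the size of each difference moved with the scaling, the 10 transcripts were also compared with one another inside each library. A scaling by 1 factor per library cannot change such a comparison. The summed FPKM of the 5 inhibitors over that of the 5 subunits, as a log2 ratio, was 2.22, 2.22 and 2.22 in WT and 2.07, 2.00 and 2.15 in PGRN KO. The WT libraries were almost identical, and each PGRN KO library was below them. The difference was -0.15 (WT 2.22 ± 0.0021 and PGRN KO 2.07 ± 0.071, SD, n = 3 each; exact two-sided permutation p = 0.10, the smallest that 3 against 3 allows, adjusted p = 0.183 over 11 quantities). Without Nfkbia, which dominates the sum, the difference was -0.23, from 0.68 ± 0.032 to 0.45 ± 0.072 (SD, n = 3 each). A shift inside the ratio shows unequal change of its parts and not which of them moved.

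Within the 10, the part of the summed FPKM taken by Tnfaip3 was 9.20%, 9.58% and 10.1% in the WT libraries, against 8.42%, 7.94% and 8.10% in the PGRN KO libraries. Tnip1 made up 7.70%, 7.47% and 7.19% in WT and 6.90%, 6.63% and 6.52% in PGRN KO. The shares of these partners were thus lower in each PGRN KO library than in each WT library. The share of Relb went the other way, from 3.05%, 3.04% and 3.04% to 3.38%, 3.38% and 3.37%, and Rela and Nfkb1 also had separate groups with the higher share in PGRN KO. A share can rise because the sum falls. By level their means were not higher in PGRN KO: 70.4 and 64.7 FPKM for Relb in WT and PGRN KO, 70.8 and 64.8 for Rela, and 32.3 and 30.6 for Nfkb1. The exact two-sided permutation p was 0.10 for each of these 5 shares (adjusted p = 0.183). The share of Nfkbia was 53.9 ± 0.645% in WT and 54.5 ± 0.851% in PGRN KO, with overlapping groups (n = 3 each; exact permutation p = 0.50), and those of Nfkb2, Rel, Nfkbie and Nfkbiz overlapped too. So Rel and Nfkbie, called lower by level, held a share of the 10 that did not separate the genotypes, with exact permutation p of 0.60 and 0.20.

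**Figure D3:**
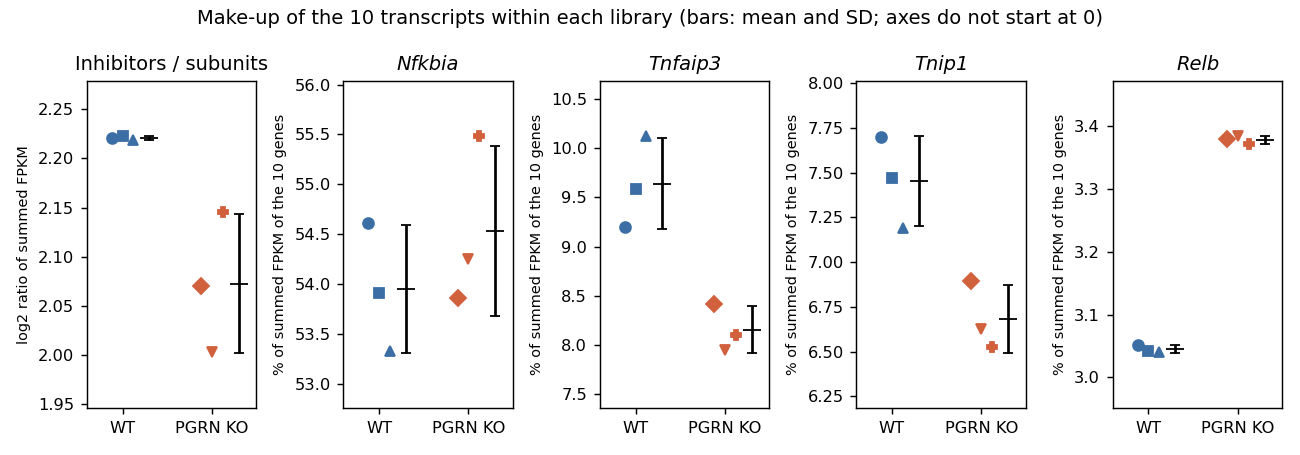
Left, log2 ratio of the summed FPKM of the 5 inhibitors to that of the 5 subunits in each library, then the share of the summed FPKM of the 10 genes, in percent, taken by Nfkbia, Tnfaip3, Tnip1 and Relb, with blue points for WT, orange points for PGRN KO, and bars for mean and SD (n = 3). The ratio and the shares of Tnfaip3 and Tnip1 are lower and that of Relb higher in each PGRN KO library than in each WT library, while Nfkbia overlaps.

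The other genes of the pathway were followed in 5 lists holding 85 genes, each of them tested. In PGRN KO 34 were called lower and 1 higher, and the median log2 fold change was -0.22. Beside these stand 9.95% lower and 7.94% higher over all tested genes, and 30.2% lower among the 1446 abundant ones. With plain totals of fragments 24 were called lower and 5 higher. Of the 14815 genes tested that way, 6.3% were called lower and 2148 genes were called higher. Receptors that signal to NF-κB were lower most often, with 11 of 13 called lower, 0 called higher and a median of -0.36 (7 lower and a median of -0.24 with plain totals). The count was 6 without WT replicate 2 or PGRN KO replicate 5, and 7 without WT replicate 1 or 3. The largest differences were in Cd40, the TNF receptor family member bound by CD40 ligand, which fell from 7.18 ± 0.179 to 2.92 ± 0.161 FPKM (SD, n = 3 each; log2 fold change -1.06, adjusted p = 0.000205 from limma), in Clec4n, the gene of Dectin-2, with a log2 fold change of -0.79, and in Clec7a, the gene of Dectin-1, with -0.62. Clec4n and Clec7a bind fungal mannan and glucan. The paper reports Dectin-2 mRNA and surface protein as higher in PGRN KO neutrophils soon after exposure to heat-killed yeast, and Dectin-1 as comparable. Those measurements differ from the present ones in time, stimulus and method.

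Of the 27 adaptors and kinases between receptor and NF-κB, 5 were called lower and 0 higher, with a median of -0.051, against the same 9.95% of all tested genes called lower. With plain totals the median was 0.052, 5 were lower, and 3 (Tradd, Chuk and Rbck1) were called higher. Beside these stand 6.3% lower and 2148 higher of the 14815 genes tested that way. Malt1, the protease of the CARD9 and BCL10 complex that relays C-type lectin signals, was at 20.5, 20.4 and 22.2 FPKM in WT and 13.2, 11.4 and 12.3 FPKM in PGRN KO (log2 fold change -0.73, adjusted p = 0.00118 from limma). Ikbkg, the regulatory subunit NEMO of the IκB kinase, had a log2 fold change of -0.59 (adjusted p = 0.00143), while its catalytic partners Chuk and Ikbkb were not called with the deposited scaling. Irak2, a kinase-like adaptor below Toll-like receptors, had -0.41 (adjusted p = 0.0046).

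Among the remaining IκB family genes Nfkbid, encoding the nuclear IκBNS, was more abundant than any member but Nfkbia. It was at 613, 607 and 630 FPKM in WT and 518, 458 and 419 FPKM in PGRN KO, with separate groups and a log2 fold change of -0.41 (SE 0.077, adjusted p = 0.0141 from limma, and 0.0395 with plain totals). This call was lost without WT replicate 2 or PGRN KO replicate 5. Nfkbib and Bcl3 were not called, with log2 fold changes of -0.11 and -0.19 (0.0045 and -0.070 with plain totals). Of 12 other negative regulators 4 were called lower and 0 higher, with a median of -0.18, against 9.95% lower and 7.94% higher over all tested genes. With plain totals 1 was lower and 1, Cyld, was higher, against 6.3% lower and 2148 higher of 14815 genes. With the deposited scaling the lower count was 1 without WT replicate 1, WT replicate 3 or PGRN KO replicate 5, and 2 without WT replicate 2. Tnip3, a relative of Tnip1, had a log2 fold change of -0.50 (adjusted p = 0.0087 from limma), Rnf11, a subunit of the A20 complex, had -0.31 and Tnip2 had -0.30. Tnip2 and Rnf11 lost their calls with plain totals.

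Among 30 genes known as NF-κB targets, 13 were called lower, 1 was called higher and 16 did not pass, with a median of -0.25, against 9.95% lower and 7.94% higher over all tested genes. Without PGRN KO replicate 5 the lower count was 8. With plain totals 10 were lower and 1 higher, with a median of -0.15, against 6.3% lower and 2148 higher of 14815 genes. Cxcl3, a neutrophil chemoattractant, fell from 33.6 ± 3.53 to 19.4 ± 2.42 FPKM (SD, n = 3 each; log2 fold change -0.76, adjusted p = 0.00507 from limma). Ccrl2, a chemerin-binding receptor, and Ptgs2, the inducible cyclooxygenase, had log2 fold changes of -0.66 and -0.64. Vcam1, an adhesion molecule, was the 1 gene called higher, at 16.9 ± 0.254 FPKM in WT and 27.9 ± 0.821 FPKM in PGRN KO (SD, n = 3 each; log2 fold change 0.69, adjusted p = 0.000324 from limma). Abundant targets differed from one another. Ccl3 and Cxcl2 were called lower, with log2 fold changes of -0.33 and -0.28, whereas Ccl4 had -0.13, Tnf -0.0057 and Il1b 0.068, none of them past the threshold. With plain totals Ccl3 kept its call, Cxcl2 lost it, and Tnf had its sign turned, to 0.11. These last 5 were named after their values were seen.

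**Figure D4:**
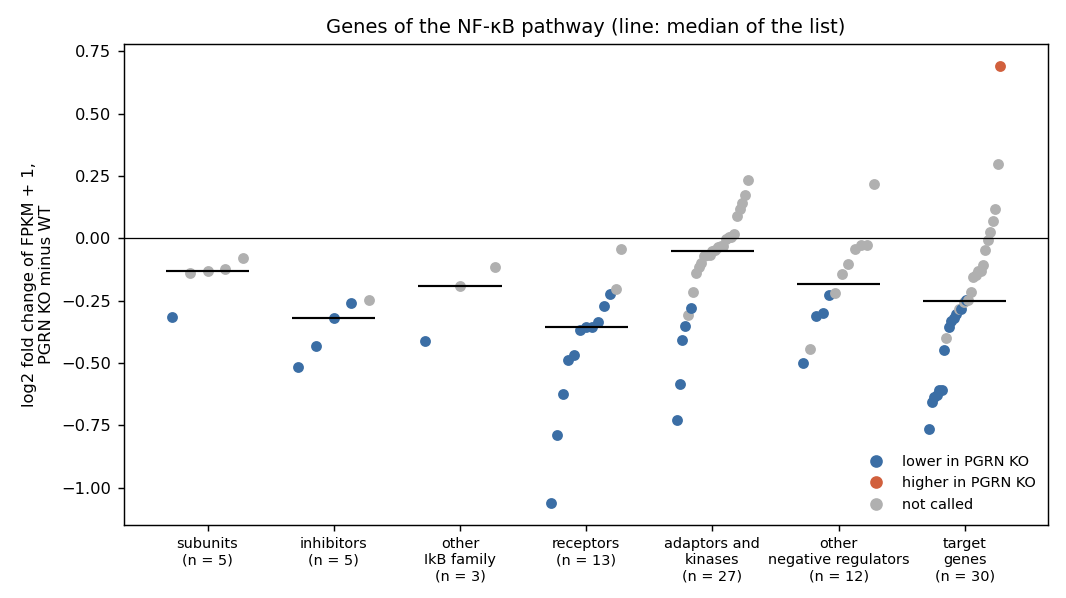
Log2 fold change of FPKM + 1, PGRN KO minus WT, for the 5 subunits, the 5 inhibitors and the 85 genes of the 5 pathway lists, 1 point per gene, blue where called lower, orange where called higher and grey where not called, with a line at the median of each list. The medians run from -0.36 in the receptors to -0.051 in the adaptors and kinases, and Vcam1 is the 1 orange point.

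Markers of other cell types and stages also differed between genotypes, and in bulk RNA a change in the share of a cell type and a change in RNA per cell cannot be told apart. Summed FPKM of 5 markers of immature granulocytes was 128.7 to 143.8 in the WT libraries and 608.7 to 670.4 in the PGRN KO ones, with 5 of 5 called higher, and that of 5 cell cycle markers was 64.9 to 68.8 and 86.8 to 94.2, with 4 of 5 higher. Markers of B and plasma cells summed to 24.4 to 26.6 and 71.6 to 86.9 FPKM (4 of 7 higher, Pax5 listed at 0, Ms4a1 under 0.1 in each library), those of basophils and mast cells to 2.01 to 2.44 and 10.9 to 12.4 FPKM (4 of 5 higher), and those of erythroid cells to 0.989 to 2.74 and 4.56 to 5.48 FPKM (2 of 4 higher). Monocyte and macrophage markers summed to 527.6 to 533.1 and 552.7 to 700.3 FPKM, with 3 of 8 called lower and 1, Ly6c2, higher. Dendritic cell markers summed to 110.8 to 120.6 and 72.9 to 82.9 FPKM, with 2 of 5 (Cd74 and H2-Ab1) lower and Siglech and Zbtb46 under 0.1 in each library. Those of T and NK cells summed to 2.25 to 2.89 and 7.29 to 8.44 FPKM, with Nkg7 higher and Cd3e and Cd3g listed at 0. For comparison, 9.95% of all tested genes were called lower and 7.94% higher. With plain totals of fragments the counts of these markers were the same, against 6.3% lower and 2148 higher of 14815 genes. The part of these marker differences in the lower NF-κB transcripts was not tested.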

How the data were processed

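RNA sequencing libraries of 3 WT and 3 PGRN KO neutrophil cultures were used, grouped by their labels. After read filtering the authors aligned with HISAT, and they deposited 1 FPKM value per gene and library. The paper's methods name HTSeq for the values, whereas the submitters' processing notes name HISAT2 2.0.5, featureCounts 1.5.0-p3 and the builds mm10 and GRCm38. Of 54495 gene identifiers shared with GENCODE M21 (GRCm38), 53585 have the same start and end. No source states that strand was used. Nfkb2, Tnip1 and Nfkb1 overlap other genes, namely Psd by 4 bases, Gm12230 by 454 and Gm43430 by 3897. Only Gm43430 is on the strand of the member it overlaps. These genes held at most 746, 8 and 16 fragments in a library, and how reads in shared bases were assigned was not tested.

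FPKM times gene length gave whole fragments, within 0.05, for 100% of values above 0. Median-of-ratios factors of the deposited values were 1.006 in each library, so the deposited scaling already is of that kind. Pairs of replicates were further apart than sampling noise (chi-square per degree of freedom at least 2.71).

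Genotypes were compared on log2(FPKM + 1), which understates changes of low genes, with limma 3.58.1 in R 4.3.3 (lmFit, eBayes with trend), over the 14807 genes that averaged 0.1 FPKM or more, two-sided, with Benjamini-Hochberg adjustment. The fit was tested on simulated data. Shares were compared with exact permutation tests (scipy 1.17.1), and voom was run with trimmed-mean (TMM) scaling. The members, the lists and the rule for named genes were chosen with earlier results of these data known. The rule names the 10 genes, Grn and, in each pathway list, up to 3 genes called higher and 3 called lower with the largest log2 fold change. Other pathway genes were named after their values were seen. The alternatives tried were other pseudocounts, filters, scalings, eBayes settings, voom on fragments and leaving out each library. Shares without Nfkbia were added after the data were seen. The authors' macrophage libraries were not analysed here.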

Additional observations from a re-analysis of the deposited data

How the results depend on the processing

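Across 16 alternative fits the log2 fold change of the 10 genes kept its sign in each case but one, that of Nfkb1 at 0.036 with plain totals of fragments. With plain totals Nfkb2, Rela and Relb barely kept it, at -0.017, -0.013 and -0.0060 (adjusted p = 0.931, 0.936 and 0.969 from limma). The number called lower, 5 as reported, was 1 with no filter on low values, 3 with quantile normalization, 1 with plain totals and 2 with eBayes without trend, and 0 to 6 with 1 library left out. It was 5 with either other pseudocount, with a minimum mean FPKM of 1 and with robust eBayes, and 6 with voom on fragments. Median-of-ratios scaling left it at 5, but the deposited values already carry such a scaling. Of the 85 pathway genes 20 to 35 were called lower with 1 library left out, the lowest count being that without PGRN KO replicate 5 and the next, 22, that without WT replicate 2. The number called higher, 1 as reported, was 2 with a minimum mean FPKM of 1, 3 with voom, 5 with plain totals and 1 to 2 with 1 library left out. Over all tested genes, plain totals turned 1473 lower and 1175 higher calls into 933 and 2148. The log2 ratio of inhibitors to subunits differed by -0.18 to -0.11 with 1 library left out, by -0.19 from fragments not divided by length, and by -0.23 without Nfkbia. The causes of these changes were not tested. No paired analysis was possible because the labels give WT and PGRN KO libraries different numbers, 1 to 3 and 4 to 6. With 3 cultures a group, single values cannot reach an exact permutation p below 0.10.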

Other observations

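The deposited table assigns the 5 NF-κB subunits to the Rel homology family of transcription factors together with 5 NFAT genes, whose products are switched on by calcium and calcineurin. These were far less abundant than the NF-κB subunits. Nfatc1 was at 5.97 ± 0.504 FPKM in WT and 6.35 FPKM in PGRN KO, Nfatc3 at 5.70 ± 0.155 and 6.00 FPKM, and Nfat5 at 4.34 ± 0.425 and 3.78 FPKM (SD, n = 3), with log2 fold changes of 0.078, 0.063 and -0.16, none called by limma (adjusted p = 0.541, 0.484 and 0.204). Nfatc2 and Nfatc4 were under the minimum for testing.

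The κB consensus was also counted in the promoters of the other lists. It was present in 11 of 26 target genes, 3 of 9 other negative regulators, 2 of 3 other IκB family genes, 2 of 10 receptors and 3 of 20 adaptors and kinases that the promoter table holds, against 5.14% of all genes in it. Of 567 tested genes with the consensus 15.9% were called lower and 8.82% higher in PGRN KO, and of 8753 tested genes without it 11.2% and 8.01% were. No test of these shares was made.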
